A study of Mus musculus with 2 samples.

Results

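The Notch pathway was described here through 10 genes in the embryonic mouse midbrain: the receptors Notch1, Notch2 and Notch3, the ligands Dll1, Dll3 and Jag1, and the basic helix-loop-helix (bHLH) factors Hes1, Hes5, Hes6 and Hey1. They were chosen by name, not by their values, though earlier results of these data were known. All 10 were found among the 43346 Ensembl genes of each deposited table. The tissue was midbrain of strain B6NCrl at embryonic day 14.5, with no treatment and no engineered allele named in the labels, and 1 library came from each of 2 pups collected on different days (embryo 1 and embryo 2). Both libraries belong to 1 group, so no condition was compared. The labels give both samples the same pup number, pregnancy number and donor identifier, and they are treated as 2 embryos because the biological replicate numbers and collection days differ. A difference between them is a difference between 2 samples, with no test and no p-value.

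Notch is a receptor that a neighbouring cell switches on. A Delta or Jagged ligand on one cell pulls on Notch on the next, successive proteolytic cuts release the Notch intracellular domain, and this domain joins the DNA-binding protein RBPJ in the nucleus to turn on Hes and Hey genes. In the developing brain the Hes and Hey repressors hold progenitors back from becoming neurons, while cells that leave this state express the Delta ligands and proneural factors.

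The libraries held 32716141 and 30185472 counts over all rows in embryos 1 and 2. Midbrain and isthmus markers were detected in 8 of 8 cases. Otx2 was the highest of them at a TPM of 99.9 and 76.3, where TPM is a transcript level corrected for transcript length and library size. The lowest mean TPM in that list was 1.42. Of 9 forebrain and hindbrain markers only Lhx2 was detected, at 55.4 and 37.3, above every midbrain and isthmus marker but Otx2. Hoxb1, Hoxb4 and Hoxa3 had 0 counts in both embryos. Sex is labelled as pooled, although each sample is 1 pup. Xist had 3 counts in embryo 1 and 20808 in embryo 2, while Eif2s3y had 1901 and 0 and Ddx3y 1706 and 0, so sex-linked RNAs and collection day both separate the libraries and cannot be told apart from other differences between the pups.

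Promoter sequences were available for 8 of the 10 genes in RefSeq (GRCm38.p6), as 10 windows of 250 bases before an annotated start. Hes1 and Hey1 had no window and could not be searched. The windows of the most abundant pair, Hes5 and Hes6, are shown because, of the 8, Hes5 alone held the core letters of an RBPJ site. The Hes5 window lies at chr4:154960673-154960922 on the plus strand, directly before the start of the coding transcript Hes5-201, and 153 of its bases fall in an exon of Gm20421, a noncoding gene on the opposite strand. The Hes6 window lies at chr1:91413223-91413472 on the minus strand, directly before the start of the coding transcript Hes6-201. It also lies inside an intron of Hes6-204, a noncoding transcript that starts further upstream and had 0 counts in both embryos. Both are written 5′ to 3′ in the direction of the gene. Capitals mark the RBPJ core TGGGAA or its reverse complement in Hes5, and a match to the N-box letters CACNAG, the kind of site that Hes repressors bind, in Hes6.
Hes5: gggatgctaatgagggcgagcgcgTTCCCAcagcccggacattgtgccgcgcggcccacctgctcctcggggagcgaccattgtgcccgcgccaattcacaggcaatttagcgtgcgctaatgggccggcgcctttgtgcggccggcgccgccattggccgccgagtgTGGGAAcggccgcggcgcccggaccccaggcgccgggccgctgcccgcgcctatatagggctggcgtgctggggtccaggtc
Hes6: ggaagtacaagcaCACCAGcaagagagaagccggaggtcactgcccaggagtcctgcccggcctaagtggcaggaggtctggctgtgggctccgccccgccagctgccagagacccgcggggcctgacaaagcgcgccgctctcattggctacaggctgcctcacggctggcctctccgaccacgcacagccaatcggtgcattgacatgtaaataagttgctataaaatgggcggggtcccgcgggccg

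TGGGAA was searched on both strands and lay in Hes5 at -226 (minus strand) and -82 (plus strand) from the start, counting the first base of the match. Over all 32851 windows of this length, 21.6% held at least 1 match and 2.77% held at least 2. CACNAG, also on both strands, was matched 1 time each in Hes6 (at -237), Notch1 and Notch2 and 2 times in Notch3, against 36.7% of all windows with a match and 8.18% with at least 2. The E-box letters CACGTG, which are the same on both strands and share no full match with the other motifs, were in none of the members' windows and in 6.02% of all. These are matches of letters, not measured sites.

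All 10 genes were detected, that is, each embryo's TPM was 1 or more, as for 59.5% of 21474 protein-coding genes. Their levels spanned a wide range, also within a role: the bHLH factors ran from a mean TPM of 159 (Hes6) to 9.55 (Hes1). The bHLH factors Hes6 and Hes5 stood far above the rest, Dll3, Notch1, Hey1 and Dll1 formed a middle group near a TPM of 20, and Jag1, Hes1, Notch3 and Notch2 were lowest. Levels are compared as TPM, and the values of 2 neighbours in this order were called separate only when the ranges of both embryos did not overlap. By that measure Hes6 lay above Hes5, Hes5 above Dll3, Dll1 above Jag1 and Hes1 above Notch3. The separation of Dll1 from Jag1 depended on noncoding transcripts. Over coding transcripts alone the ranges of Dll1 and Jag1 overlapped, while the other pairs named stayed separate. The members of the middle group, the pair Jag1 and Hes1, and the pair Notch3 and Notch2 overlapped with their neighbours. In bulk tissue, fewer cells expressing a gene and less RNA per cell cannot be told apart.

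**Figure D1:**
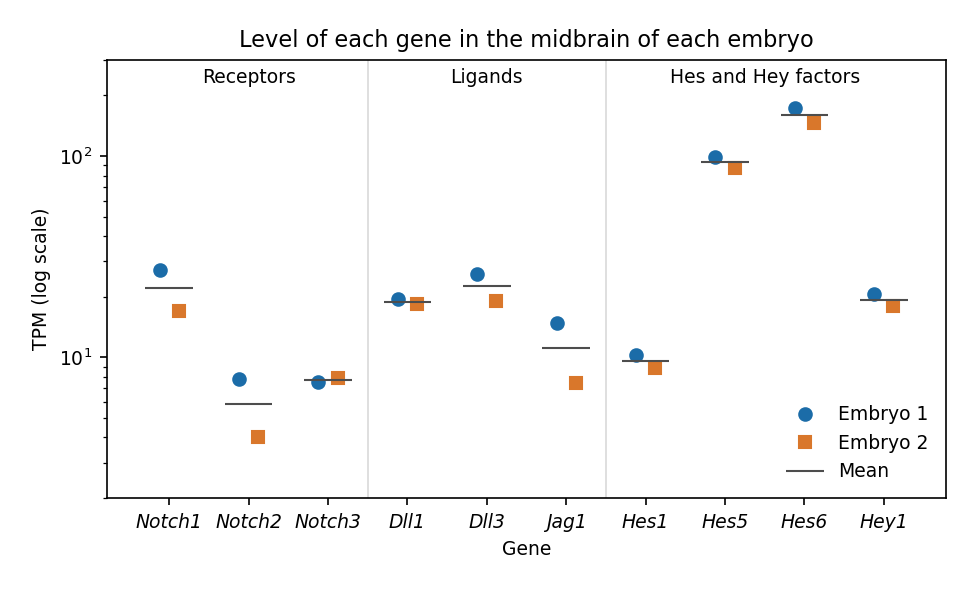
TPM of each gene (log scale) in embryo 1 (circles) and embryo 2 (squares), with the mean as a line, grouped as receptors, ligands and Hes and Hey factors. Hes6 (173 and 146) and Hes5 (98.9 and 86.9) lie above all other genes, and Notch2 and Jag1 show the widest gaps between the embryos.

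Notch1, the receptor best known for keeping neural progenitors from differentiating, was the most abundant of the receptors. Its TPM was 27.1 in embryo 1 and 17.0 in embryo 2 (mean 22.0 ± 7.13, SD over n = 2 embryos, the form used for every level that follows), from 4168 and 2928 counts. The mean lay above 71.5% of protein-coding genes. Counts scaled by TMM, which centres the ratios of most genes on equality, were 1.28-fold higher in embryo 1 (95% counting interval 1.23 to 1.35, covering counting error only). The gene lies on the minus strand of chromosome 2 at 26457903 to 26516663 (GRCm38, as for all positions here).

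Notch2, a receptor with a similar architecture, had the lowest mean of the 10 genes, though not the lowest value in embryo 1, and was one of the most different between the pups. TPM was 7.76 and 4.02 (5.89 ± 2.64), from 1547 and 800 counts. Scaled counts were 1.74-fold higher in embryo 1 (1.60 to 1.90). The gene spans 98013527 to 98150361 on chromosome 3. Notch3, which is expressed in brain progenitors and in the mural cells that wrap vessels, went the other way. TPM was 7.53 and 7.93 (7.73 ± 0.283), from 1146 and 1204 counts, and scaled counts were 1.16-fold higher in embryo 2 (1.07 to 1.26). Its position is chromosome 17, 32120820 to 32166852.

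The make-up of the receptor pool differed between the pups. Of the TPM summed over Notch1 to Notch4, Notch1 took 53.7% in embryo 1 and 46.3% in embryo 2, Notch2 15.4% and 10.9%, Notch3 14.9% and 21.6%, and Notch4, a receptor of the endothelium, 16.0% and 21.2%. The Notch4 part rests on short noncoding transcripts. Its TPM of 8.07 and 7.79 fell to 2.29 and 2.13 over its protein-coding transcript, which held 87.2% and 83.6% of its counts but 28.4% and 27.3% of its TPM. Over coding transcripts alone, Notch1 took 56.5% and 53.4%, Notch2 19.2% and 13.3%, Notch3 18.6% and 26.2%, and Notch4 5.67% and 7.04%. In both versions Notch2 ranked above Notch3 in embryo 1 and below it in embryo 2.

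Dll1, the Delta ligand that newborn neurons present to their progenitor neighbours, differed little between the pups. TPM was 19.4 and 18.4 (18.9 ± 0.721), from 996 and 932 counts. Scaled counts differed by a log2 ratio of embryo 2 over embryo 1 of 0.05, with an interval of 0.947 to 1.13-fold that includes no difference. This sign flips to -0.08 with ratios of TPM. Dll1 lies on chromosome 17 at 15367354 to 15376872.

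Dll3, a divergent Delta that stays largely in the Golgi and dampens Notch within the cell that makes it, had the highest mean of the 5 Delta and Jagged ligands. TPM was 26.0 and 19.0 (22.5 ± 4.90), from 1060 and 709 counts, and scaled counts were 1.35-fold higher in embryo 1 (1.23 to 1.49). The ratio of Dll3 to Dll1 in TPM was 1.34 in embryo 1 and 1.04 in embryo 2, so the pair were closer to equal in embryo 2. Over coding transcripts alone Dll3 had a TPM of 20.64 and 13.44 and Dll1 15.44 and 13.5. By that measure Dll3 kept the higher mean (17.0 against 14.5) but did not lead in embryo 2. Dll3 lies on chromosome 7 at 28293553 to 28302238.

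Jag1, the Jagged-type ligand found in discrete brain domains and in vessels, differed most between the pups. TPM was 14.8 and 7.43 (11.1 ± 5.23), from 1501 and 752 counts, and scaled counts were 1.80-fold higher in embryo 1 (1.65 to 1.97). The gene spans 137081456 to 137116644 on chromosome 2. Of the TPM summed over the ligands Dll1, Dll3, Dll4, Jag1 and Jag2, Jag1 took 20.8% in embryo 1 and 13.3% in embryo 2, while Dll1 took 27.2% and 32.9% and Dll3 36.4% and 34.0%. Jag2 made up 10.6% and 14.3%, and Dll4, the Delta ligand of the endothelium, 4.98% and 5.54%. Jag1 thus held a larger share than Jag2 in embryo 1 and a smaller one in embryo 2, also over coding transcripts alone (Jag1 22.9% and 15.6%, Jag2 12.4% and 17.7%).

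Hes5, a main Notch target in neural progenitors, reached a TPM of 98.9 and 86.9 (92.9 ± 8.54), from 2082 and 1828 counts, above 92.1% of protein-coding genes. Scaled counts were 1.03-fold higher in embryo 1, with an interval of 0.965 to 1.1 that includes no difference. It lies on chromosome 4 at 154960923 to 154962371, directly after the window with the TGGGAA matches shown above. Hes1, the other classical Notch target of progenitors, was much lower. TPM was 10.3 and 8.84 (9.55 ± 1.01), from 267 and 227 counts, and scaled counts were 1.06-fold higher in embryo 1 (0.886 to 1.27). Hes1 had the fewest counts of the 10 genes and so the widest interval. Its position is chromosome 16, 30064384 to 30067796. Hes5 exceeded Hes1 by 9.63-fold in embryo 1 and 9.83-fold in embryo 2.

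Hes6 differs in function from Hes1 and Hes5: it antagonises Hes1 and promotes neuronal differentiation. It was the most abundant of the 10 genes, at a TPM of 173 and 146 (159 ± 18.8), from 4170 and 3519 counts, above 95.8% of protein-coding genes. Scaled counts were 1.07-fold higher in embryo 1 (1.02 to 1.12). The gene spans 91411483 to 91414038 on chromosome 1. Hes6 exceeded Hes5 by 1.74-fold and 1.68-fold in TPM, so the order of these factors was the same in both pups.

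Hey1, a Hes-related repressor that is a Notch target in progenitors and in endothelium, stood in the middle group. TPM was 20.7 and 18.0 (19.3 ± 1.95), from 875 and 735 counts, and scaled counts were 1.07-fold higher in embryo 1 (0.973 to 1.19). It lies on chromosome 3 at 8663359 to 8667256. Hey1 exceeded Hes1 by 2.02-fold and 2.03-fold. Of the TPM summed over 9 Hes and Hey factors, Hes6 took 55.4% and 55.0%, Hes5 31.8% and 32.8%, Hey1 6.65% and 6.77% and Hes1 3.30% and 3.33%. These shares, taken over all transcripts, moved by about 1 percentage point or less between the pups. Those of the 3 receptors and 3 ligands described here moved by more. Over coding transcripts alone, Hes6 took 53.7% and 52.4%, Hes5 32.6% and 34.6%, Hey1 6.88% and 6.92% and Hes1 3.63% and 3.70%. There the shares of Hes6 and Hes5 moved by more than 1 percentage point.

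Set side by side with TMM scaling, the bHLH factors differed little between the embryos and the receptors and ligands more. All 4 bHLH factors and Dll1 lay within 1.1-fold, as did 31.9% of 14011 genes with at least 100 summed counts. None of the 4 bHLH factors stayed within 1.1-fold with spike-in scaling (log2 ratios -0.21 to -0.15) or with TPM ratios (-0.24 to -0.19), where the median of all genes also moved, to -0.105 and -0.13. At least 1.5-fold apart were 2 of 10 genes, Notch2 and Jag1, against 14.2% of all genes, and both were higher in embryo 1, as were 8.56% of all genes at that size. None of the 10 was 2-fold apart, a size that 4.78% of all genes reached. In all, 8 of the 10 were higher in embryo 1, where 49.4% of all genes were. The median log2 ratio of embryo 2 over embryo 1 was -0.10 for the 10 genes and 0.006 for all genes, and the median absolute log2 ratio was 0.162 and 0.231. With scaling on spike-ins or with ratios of TPM, 9 of the 10 were higher in embryo 1, beside 62.5% and 65.1% of all genes, because Dll1 changed sign. The direction of the other 9 was the same under every scaling tried.

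**Figure D2:**
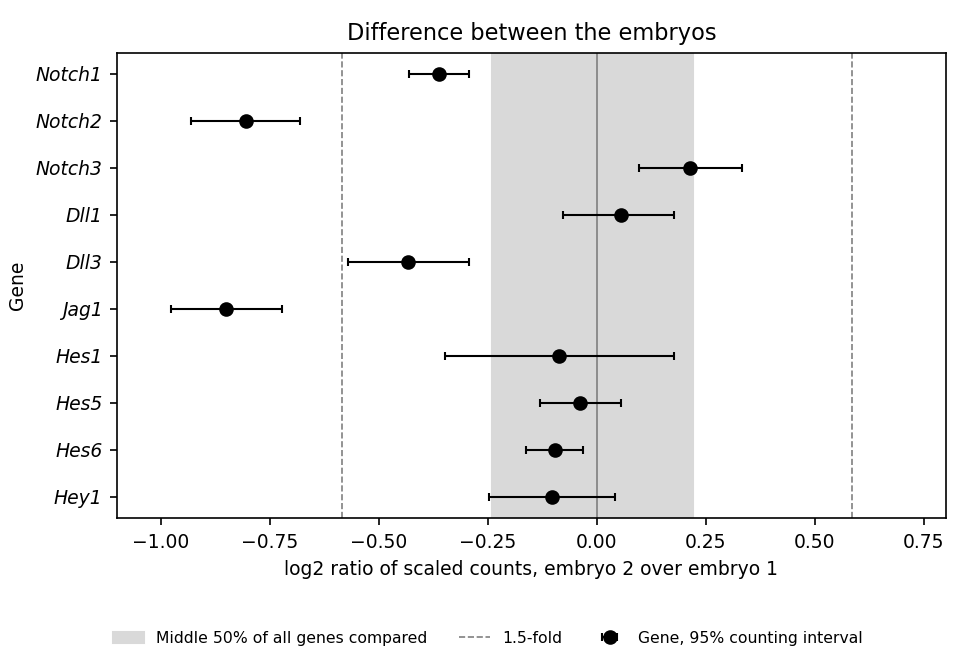
log2 ratio of scaled counts, embryo 2 over embryo 1, for each gene with its 95% counting interval (bars). The grey band is the middle 50% of all genes compared (-0.24 to 0.22), and dashed lines mark 1.5-fold. With this scaling the points of the 4 bHLH factors and Dll1 lie inside the band close to 0, and Notch2 and Jag1 lie beyond the line on the side of embryo 1.

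The transcript tables list 39 annotated transcripts of the 10 genes, and 26 had counts in both embryos. In each gene 1 coding transcript led, and the median share of the leading transcript was 91.4% of a gene's TPM. Notch2 and Notch3 have a single transcript in the annotation. For Notch1 the leading transcript, Notch1-201, had a TPM of 22.8 and 16.2 and held 98.4% and 99.1% of the counts, but 84.2% and 95.1% of the TPM. In embryo 1, 12 counts assigned to Notch1-202, a noncoding transcript of 406 bases, made up 7.64% of the gene's TPM. In embryo 2 it had 0 of 2928 counts, which allows a share of counts of up to 0.102%. This contrast depends on the estimate: with posterior mean TPM, Notch1-202 took 8.87% and 6.39% and Notch1-201 70.9% and 72.8%. The ratio of Notch1 TPM between the pups, 1.59-fold, was larger than the 1.28-fold ratio of its scaled counts.

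Transcripts annotated as retaining an intron carried a visible part of Dll1, Dll3 and Hes6. Of the TPM they took 20.5% and 26.6% in Dll1, 20.5% and 29.4% in Dll3, 13.3% and 17.0% in Hes6 and 7.44% and 10.9% in Hey1. Of the counts they took 5.09% and 6.68% in Dll1, 6.03% and 8.72% in Dll3, and 15.1% and 18.7% in Hes6. Over 5192 genes with such a transcript the median was 8.12% of TPM and 3.93% of counts. By counts Hes6 lay above 82.5% of them, Dll3 above 64.6%, Dll1 above 59.2% and Hey1 above 42.9%. By TPM the order differed: Dll3 lay above 80.0%, Dll1 above 78.6%, Hes6 above 66.9% and Hey1 above 52.9%. The shares of TPM were higher in embryo 2 in these 4 genes, whereas they were 5.40% and 5.38% in Jag1 and 2.18% and 1.76% in Notch1. How many of all genes had a higher share in embryo 2 was not computed, so this direction cannot be called particular to these genes.

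Most of the Hes6 part was Hes6-202, which has the same ends as the coding Hes6-201. It held 568 of 4170 counts in embryo 1 (13.6%, Wilson 95% interval 12.6 to 14.7) and 560 of 3519 in embryo 2 (15.9%, 14.7 to 17.2). For Dll3 it was Dll3-202, with 39 of 1060 counts (3.68%, 2.70 to 4.99) and 57 of 709 (8.04%, 6.26 to 10.3). The Dll3-202 intervals did not overlap between the pups, while those of Hes6-202 met at 14.7%. Counts per transcript are estimates that divide reads among overlapping models, so these intervals understate the error. The other retained-intron transcript of Dll3, Dll3-203, went the other way, with 25 and 5 counts.

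**Figure D3:**
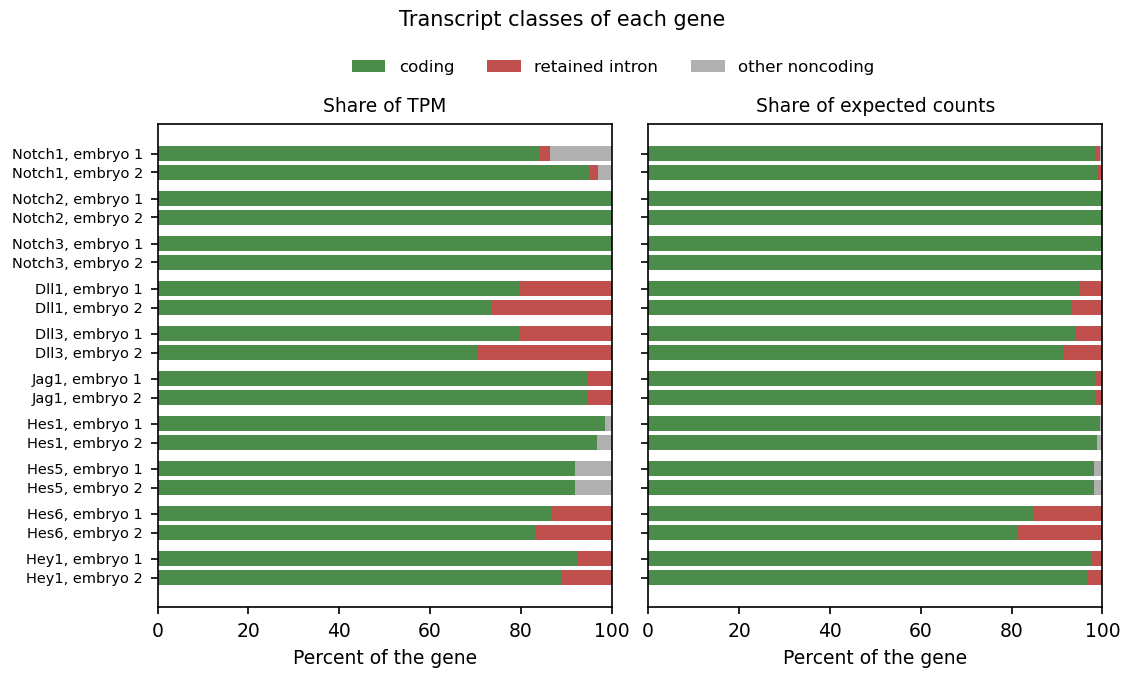
Percent of each gene's TPM (left) and of its expected counts (right) in coding, retained-intron and other noncoding transcripts, for both embryos. Noncoding classes take more of the TPM than of the counts in Notch1, Dll1 and Dll3, where their transcripts are short, but not in Hes6.

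No source used here gives the strand handling, so reads of genes on opposite strands cannot be told apart where they overlap. Such partners had fewer counts than the members. A930024N18Rik at Dll1 had 119 and 117, beside 996 and 932 for Dll1. At Notch1, Gm13568 had 79 and 87 and 0610009E02Rik 36 and 42. Gm20421 at Hes5 had 59 and 55, and Gm17276 at Notch3 14 and 22. These counts do not limit how many reads of a partner were assigned to a member. Gm42819 and Gm42820 overlap Notch2 on the same strand and are absent from the deposited tables, so no counts can be given for them. Reads that fit several places added little uncertainty, since the largest posterior SD deposited for a member's count was 10.8, for Notch1 in embryo 1.

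The wider pathway was present as well. Of 58 further genes, 54 were detected, beside 59.5% of protein-coding genes. Of the 54 that could be compared, 31 were higher in embryo 1 and 23 in embryo 2, against 49.4% of all genes higher in embryo 1. At least 1.5-fold apart were 6 genes on the side of embryo 1 and 5 on the side of embryo 2, against 8.56% and 5.65% of all genes, and the median log2 ratio was -0.05. With spike-in scaling and with TPM ratios, 34 and 37 of the 54 were higher in embryo 1, beside 62.5% and 65.1% of all genes. The counts of each list below are to be read beside these same shares of all genes.

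Among other receptors and ligands, Dner, a neuronal transmembrane protein proposed as a noncanonical Notch ligand, led at a TPM of 197 and 188. It exceeded Dll1 by 10.1-fold and 10.2-fold. The noncanonical ligands Dlk1 (41.2 and 40.0) and Dlk2 (11.03 and 17.4) followed, and Dlk2 was 1.69-fold higher in embryo 2 (1.46 to 1.97). No other gene of the 6 differed by 1.5-fold, and 4 of 6 were higher in embryo 2, but only 2 of 6 with spike-in scaling or TPM ratios.

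Glycosyltransferases tune which ligands a receptor answers to. All 6 were detected, 5 were higher in embryo 1, and the highest were the Fringe gene Rfng (67.6 and 80.0), the O-glucosyltransferase gene Poglut1 (50.6 and 38.3) and the Fringe gene Mfng (22.6 and 13.1). Mfng was 1.53-fold higher in embryo 1 (1.35 to 1.74), and Eogt, which adds O-linked GlcNAc, 1.72-fold (1.5 to 1.99). Of the 6 genes of ligand endocytosis, which supplies the pull on the receptor, 5 were higher in embryo 2, or 4 of 6 with TPM ratios. Of all genes, 49.4% were higher in embryo 1 with TMM scaling and 65.1% with TPM ratios. The most abundant genes of ligand endocytosis were the epsin genes Epn1 (73.0 and 80.5) and Epn2 (55.4 and 61.6) and the ubiquitin ligase gene Mib2 (32.7 and 31.0). Mib2 was 1.16-fold higher in embryo 2 by scaled counts, though not by TPM. Neurl1b, another ubiquitin ligase gene, had a TPM of 1.29 and 2.78 and was 2.30-fold higher in embryo 2 (1.89 to 2.84).

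All 10 genes of receptor proteolysis were detected, 7 of them higher in embryo 1. The gamma-secretase subunit genes Psenen (79.2 and 104) and Ncstn (94.5 and 76.6) led. Adam17, a protease able to shed Notch, was 1.54-fold higher in embryo 1 (1.41 to 1.68). Aph1a, a further gamma-secretase subunit gene, was 2.18-fold higher in embryo 2 (2.00 to 2.37), with a TPM of 18.7 and 38.3. The posterior SD of its counts was 24.0 and 40.8, larger than for any of the 10 main genes.

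In the nucleus, 15 of 16 genes were detected, all but Rbpjl, a paralog of Rbpj with 0 and 1 counts. Rbpj itself had a TPM of 40.2 and 22.8 and was 1.60-fold higher in embryo 1 (1.52 to 1.68), a larger difference than in any of the 4 bHLH members. Kdm5a, a histone demethylase that works with RBPJ, had 42.0 and 26.5 and was 1.55-fold higher in embryo 1 (1.48 to 1.63). The most abundant genes were the Groucho-related Aes (332 and 471), which was 1.57-fold higher in embryo 2 (1.53 to 1.61), the co-repressor gene Ctbp1 (385 and 370) and Snw1 (91.1 and 78.8). Altogether 10 of the 15 compared were higher in embryo 1.

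Genes that restrain the receptor were all detected, 5 of 9 higher in embryo 1. The Deltex genes Dtx3 (196 and 172) and Dtx1 (39.6 and 45.7) led, followed by Numbl (27.1 and 39.2), a Numb-type inhibitor that was 1.58-fold higher in embryo 2 (1.48 to 1.69). Of the remaining Hes and Hey genes only Heyl and Hey2 were detected. Heyl, a Notch target of mural cells among others, had a TPM of 5.90 and 2.36 and was 2.19-fold higher in embryo 1 (1.85 to 2.59), while Hey2 had 1.98 and 2.28. Hes3 had 33 and 10 counts and Hes7 7 and 20. Hes2 had 0 counts in both, which allows a TPM of up to 0.106.

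**Figure D4:**
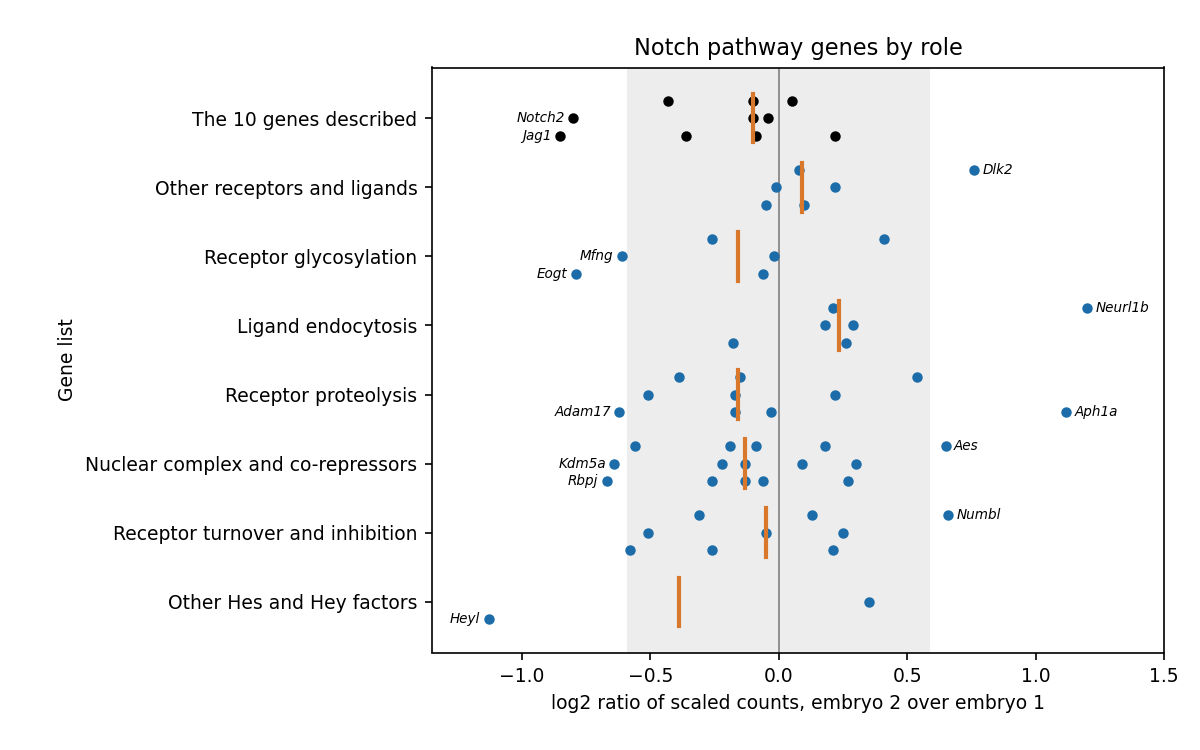
log2 ratio of scaled counts, embryo 2 over embryo 1, for the 10 genes (black) and for 54 other pathway genes by role (blue), with the median of each list as an orange bar. The grey band is within 1.5-fold, and genes beyond it are named: Notch2, Jag1 and 6 others on the side of embryo 1 and 5 on the side of embryo 2.

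Proneural factors, which switch on Dll1 and Dll3 in cells about to become neurons, are shown beside the ligands. All 8 were detected and 6 were higher in embryo 1. Neurod1 was the highest, with a TPM of 29.8 and 31.5. At least 1.5-fold higher in embryo 1 were Neurog2 (14.97 and 7.79, 1.74-fold), Neurog1 (7.33 and 2.85, 2.32-fold) and Neurod4 (5.57 and 2.00, 2.51-fold). Dll3 was 1.35-fold higher in the same embryo as these 3 genes and Dll1 lay within 1.1-fold, and a link was not tested.

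Several cell type lists differed between the pups and are given beside Notch2, Jag1 and Heyl. All 12 cell cycle markers were on the side of embryo 1, the median being 1.78-fold, and their summed TPM was 517 and 293. Progenitor markers summed to 2020 and 2090, most of it Fabp7 (1214 and 1511), with 6 of 10 higher in embryo 1, or 8 of 10 with spike-in scaling or TPM ratios. Those of immature neurons summed to 5420 and 5750, with 3 of 10 higher there, or 6 of 10 with spike-in scaling or TPM ratios. No marker of these lists was at 0.

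Among cells outside the neural lineage, endothelial markers summed to 183 and 112. The 9 that could be compared all favoured embryo 1 (median 1.58-fold), from 1.13-fold for Cldn5, the most abundant at 70.8 and 56.9, to 2.72-fold for Kdr. Mural cell markers summed to 170 and 69.3, and 7 of 8 favoured embryo 1 (median 1.38-fold). Mesenchyme markers summed to 422 and 11.9, and 9 of 9 compared favoured embryo 1 (median 37.4-fold), and no marker of these 3 lists was at 0. Of the pathway genes described above as expressed in vessels, embryo 1 over embryo 2, Heyl stood at 2.19-fold, Jag1 at 1.80-fold and Hey1 at 1.07-fold. Dll4 stood at 1.04-fold (0.860 to 1.25, from 248 and 216 counts), Notch4 at 0.934-fold (0.798 to 1.09, from 327 and 316 counts, but 1.04-fold by TPM) and Notch3 at 0.859-fold. The part of these cells in the Notch2 and Jag1 differences was not tested.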

How the data were processed

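Each library has 1 gene and 1 transcript table. Reads were aligned to mm10 and quantified on GENCODE M4, per the deposited text records. No source used here gives the quantifier, its version or its strand setting. The authors' expected counts, named so per the file headers, are estimates and need not be whole. TPM and FPKM are the authors' values per length, and posterior mean TPM and FPKM entered only as alternatives. TPM was set over all rows of a table, spike-ins and mitochondrial genes included. RNA longer than 200 nt was extracted and 10 ng entered each library, per the labels' protocols. Spike-ins took 3.15% and 3.32% of counts and stayed out of comparisons, as did 26248 rows with only numeric identifiers, which held 6 and 14 counts.

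Symbols, positions and transcript types came from GENCODE M21 (GRCm38), matching 42462 of 43346 Ensembl rows. Expected counts were rounded for scaling with TMM (edgeR 4.0.16, R 4.3.3, genes of at least 10 summed counts). Ratios used the unrounded counts, a prior count of 0.5 and at least 100 summed counts, with exact conditional binomial 95% intervals (scipy 1.17.1). Without molecular identifiers reads are not separate molecules, so intervals and limits, which take 3 counts where a count is 0, cover counting error only. The ratio and scaling steps were checked on simulated counts. Sizes of 1.5-fold and a TPM of 1 served as fixed rules, since 2 libraries of 1 group allow no test.

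From each pathway and proneural list the text names the 3 genes of highest mean TPM, every gene at 0 in both embryos and every gene at least 1.5-fold apart, except that 2 genes the rule would name are not reported here. Notch4, Dll4, Jag2, Hes7, Rbpjl, Otx2, Lhx2, Fabp7, Cldn5 and Kdr, and the single transcripts named, were chosen after their values were seen. Marker lists are given by summed TPM and counts. The 10 genes and all lists were chosen with earlier results of these data known. Alternatives covered scaling (DESeq2 1.42.0 size factors, total counts, spike-ins, TPM ratios), prior count, count minimum, detection level, TPM over nuclear genes, posterior means, FPKM and leaving out each embryo.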

Additional observations from a re-analysis of the deposited data

How the results depend on the processing

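No paired analysis was possible because the series has 1 group. The 10 genes stayed at the same 10 ranks with FPKM and with TPM over nuclear genes, 7 kept their rank with coding transcripts only (an alternative added after seeing the data), and 6 did with posterior mean TPM. Leaving out 1 embryo kept 5 to 6 ranks. The median level of the 10 genes, a TPM of 19.1, became 21.7 over nuclear genes, 11.6 as FPKM and 15.8 over coding transcripts, and 17.5 to 20.1 with 1 embryo left out. The median share of the leading transcript was 89.9% in place of 91.4% with posterior means. Spike-in scaling and TPM ratios moved the median log2 ratio of all genes from 0.006 to -0.105 and -0.13, and that of the 10 genes from -0.10 to -0.21 and -0.23, so the gap between them was -0.11 and -0.10. TPM ratios put 3 of the 10 at least 1.5-fold apart, with Notch1 at a log2 ratio of -0.67 added, and 14 other pathway genes in place of 11. The share of all genes at that size was then 16.6% in place of 14.2%. At a minimum of 10 summed counts, 23.8% of all genes in place of 14.2% were at least 1.5-fold apart. At a TPM of 5 as the detection level, 9 of the 10 and 45 of 58 other pathway genes were detected. The share of all protein-coding genes at that level was not computed, so these counts have no background beside them. Notch2 and Jag1 kept their sign under every scaling tried. Depth limited Hes1 most, whose interval of 0.886 to 1.27-fold allows a difference either way.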
